A study of Homo sapiens with 6 samples.

Results

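The genes described are 44 genes of mitosis and the spindle, chosen by their symbols from a list of names, which was drawn up with earlier results of these data known. All 44 were among the 17687 genes of the deposited table, and all 44 passed the filter on low counts together with 14005 tested genes in total. The lowest expected count of any of the 44 in any library was 313.

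KHM-5M is a human cell line of anaplastic thyroid cancer, grown in RPMI-1640 medium with fetal bovine serum, and its poly(A) RNA was sequenced as single-end reads. The control group received PBS, the SS group received sodium selenite, and the SS+NAC group received sodium selenite with the thiol antioxidant N-acetylcysteine. Each group had 2 libraries, and the labels do not give the dose or the exposure time of the sequenced cells. Expected counts summed to 17645545 and 22016655 in control, 23493415 and 23810056 in SS, and 23682740 and 22617180 in SS+NAC. The comparison of SS with control addresses what selenite did to the transcriptome. The comparisons with SS+NAC address how the transcriptome differed when an antioxidant was added. No group received N-acetylcysteine alone, so its own effect cannot be told apart from an altered response to selenite.

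The cell line label was checked against marker genes on the TPM scale, which divides each gene's count by its transcript length. The summed TPM of the 5 thyroid follicular markers in the table was 136 and 128 in control, 118 and 105 in SS, and 129 and 134 in SS+NAC. PAX8, a transcription factor of the thyroid lineage, made up nearly all of that sum, at 134 and 126 TPM in the control libraries. The thyroid hormone precursor TG, the transcription factor NKX2-1 and the iodide transporter SLC5A5 lay under 1 TPM in all 6 libraries, and FOXE1 lay between 0.55 and 1.59 TPM. Thus the defining markers of differentiated thyroid follicular cells other than PAX8 were near 0, and TSHR was not analysed here. The 5 epithelial markers summed to 2076 and 2122 TPM in control, 2258 and 2503 in SS, and 2035 and 1715 in SS+NAC, with KRT8 the most abundant and CDH1 under 1 TPM. The 4 mesenchymal markers summed to 7275 and 7580 TPM in control, 7607 and 7481 in SS, and 7762 and 7859 in SS+NAC, with VIM the most abundant. In TPM the other 3 mesenchymal markers (FN1, CDH2 and COL1A1) were lower in both SS libraries than in both controls, unlike the sum. TPM does not take away a trend with transcript length that differs between libraries, as described below for SS. Whether these markers changed beyond that trend was not tested. All 5 leukocyte and endothelial markers lay under 1 TPM in every library, with summed values of 0.99 and 1.15 in control, 0.91 and 1.06 in SS, and 1.0 and 1.59 in SS+NAC, and PTPRC as the most abundant.

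During mitosis, cyclin B bound to CDK1 drives entry, kinetochores built on centromeres attach chromosomes to spindle microtubules, and the spindle checkpoint holds back the anaphase-promoting complex until attachment is complete. Kinesins, microtubule-bundling proteins and the chromosomal passenger complex then move chromosomes apart and set the site of cytokinesis. Many of these genes are transcribed together late in the cell cycle, so that their summed RNA in a culture is widely used as a readout of proliferation, and anaplastic thyroid cancer is known for fast growth.

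The SS libraries stood apart from the other 4 libraries by transcript length. Effective length is the number of positions from which a read can start. It was recovered from a gene's count and its FPKM, a level scaled by length and depth. A value was available for 17656 of the 17687 genes, including all 14005 tested genes. Across the tested genes, Spearman's rho between effective length and a library's deviation from the 6-library mean was 0.51 and 0.49 in control, -0.61 and -0.66 in SS, and 0.42 and 0.41 in SS+NAC. A gene's deviations cancel over the 6 libraries, so these values set the libraries against each other and show no library's own trend. Short transcripts therefore took a larger share of the reads in SS 1 and SS 2 than in any other library. Genes are not independent replicates of that pattern. The median effective length of tested genes was 3045 bases, and it divided the 44 members into 22 short ones, from UBE2C at 826 bases to DLGAP5 at 3033, and 22 long ones, from TTK at 3052 to MKI67 at 11330. Whether RNA quality or library preparation differed between the groups was not tested.

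In SS against control, 5 members rose and 20 fell at an adjusted p of at most 0.05 in the quasi-likelihood test of edgeR, adjusted over all tested genes by the Benjamini-Hochberg method. Among all tested genes 18.6% rose and 21.4% fell. The members that rose were AURKB, CCNB2, CDC20, CENPA and UBE2C, all of them short, and 19 of the 20 that fell were long, DLGAP5 being the exception. The median log2 fold change was -0.16 over the 44 members and 0.00 over all tested genes, and 30 of 44 members lay below 0 against 49.6% of tested genes. With only library totals as scaling, 4 members rose and 23 fell, the all-gene median was -0.09, and 31.7% of calls over all tested genes were rises, against 46.4% with TMM. The number of members called was 16 without control 1, 18 without control 2, 22 without SS 1, 20 without SS 2 and 27 without either SS+NAC library. Over all tested genes the share called went from 40% to 21.8%, 25.3%, 31.9%, 22.1% and 46.1% in those fits. The 5 rises became 1 without control 1, 3 without control 2, 7 without SS 1, 1 without SS 2 and 6 without either SS+NAC library, while the share of all tested genes that rose went from 18.6% to 8.75%, 12%, 15.3%, 8.61%, and 21.9% or 21.8%. The member median was -0.0940 without SS 1 and -0.22 without SS 2, and lay between these values without any other library. In bulk RNA, fewer cells in mitosis and less of each RNA per cell cannot be told apart.

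Split by length, 5 of the 22 short members (22.7%) rose and 1 (4.55%) fell, against 34.6% and 2.77% of the 7002 short genes tested. Of the 22 long members none rose and 19 (86.4%) fell, against 2.63% and 40.1% of the 7003 long genes tested. By DESeq2 and at an unadjusted edgeR p under 0.05 the rises among all 44 members numbered 5 and 6, beside 12% and 23.3% of all genes in those tests. Median log2 fold changes were 0.11 for the short members and -0.60 for the long ones, beside 0.23 and -0.24 for all short and all long genes. Across the 8 length classes of equal size, from shortest to longest, the median over tested genes went from 0.46 to 0.27, 0.15, 0.04, -0.08, -0.18, -0.30 and -0.46. The members in those classes, between 3 and 8 in each, had medians of 0.37, 0.21, 0.11, -0.07, -0.41, -0.44, -0.45 and -1.32. In the longest class, all 6 members (MKI67, CENPF, ASPM, CENPE, KIF14 and KIF20B) fell, as did 63.7% of all tested genes of that class. Spearman's rho between effective length and log2 fold change was -0.86 over the 44 members and -0.70 over 13677 tested genes with a known GC content, given as a description.

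**Figure D1:**
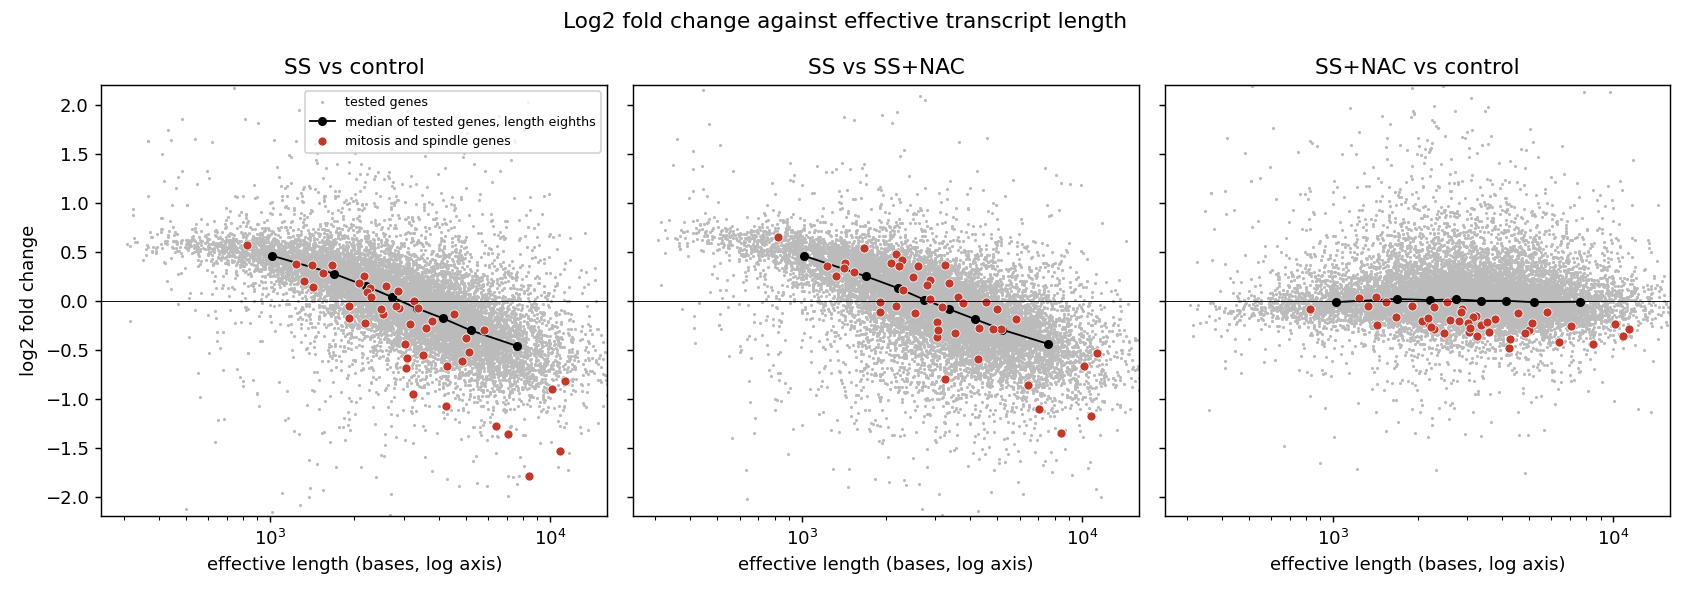
Log2 fold change (vertical axis) against effective length in bases (horizontal axis, logarithmic) for the 3 comparisons, with tested genes in grey, medians of length eighths in black and the 44 members in red. In SS against control the black medians run from 0.46 to -0.46. The medians of the members, which are not drawn, run from 0.37 in the shortest eighth to -1.32 in the longest. Outside the axes lie 79, 71 and 66 tested genes of the panels, from left to right.

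To set the members against genes of like length, the test was repeated with a length offset, a smooth curve of each library's deviation on effective length that is subtracted inside the model. With it 0 members rose and 15 fell in SS against control, beside 4.26% and 5.06% of tested genes, and the member median was -0.16 against 0.01 for all tested genes. At an unadjusted edgeR p under 0.05 the members numbered 0 higher and 19 lower with the offset, beside 12.7% and 12.7% of tested genes. DESeq2 was run without the offset only. Of the 22 short members 3 (13.6%) fell and of the 22 long members 12 (54.5%) fell, against 2.97% and 7.14% of short and long tested genes, with member medians of -0.06 and -0.35. Of the 25 members called without the offset and the 15 called with it, 13 were shared, which is 13 of 25 and 13 of 15. NDC80 and NUF2, partners in the kinetochore complex that binds microtubules, were called with the offset only. With the offset, 6 members were called without control 1, 11 without control 2, 6 without SS 1, 13 without SS 2 and 18 without either SS+NAC library, and the member median was -0.0822 without SS 1 and -0.25 without SS 2. The share of all tested genes called moved as well, from 9.31% to 1.47% without control 1, 3.07% without control 2, 2.6% without SS 1, 2.17% without SS 2, 17.4% without SS+NAC 1 and 17.1% without SS+NAC 2. SGO2, CENPE, KIF14, KIF18A, KIF20B and ASPM were called with the offset whichever of the 6 libraries was left out. Among all tested genes, only those called without control 1, the fit with the smallest share above, can meet this criterion.

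An offset on GC content as well as length, chosen after seeing the data, gave 0 members that rose and 13 that fell in SS against control. The shares of tested genes were 6.64% and 6.5%, the member median was -0.08, and at an unadjusted edgeR p under 0.05 the members numbered 0 higher and 16 lower, beside 13.8% and 13.8% of tested genes. All 13 were among the 15 called with the length offset, and 12 were called in all 3 fits: ANLN, ASPM, CENPE, CKAP2, DLGAP5, ECT2, HMMR, KIF14, KIF18A, KIF20B, SGO2 and TTK. Of all tested genes, at most the 9.31% called with the length offset can be called in all 3 fits.

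CENPE, KIF14, ASPM and KIF18A had the smallest edgeR p with the length offset among members with a promoter entry, and their promoters are shown for that reason. The sequences come from RefSeq on GRCh38.p14, span 300 bases around the annotated start and are written from 5' to 3' on the minus strand, on which all 4 genes lie. CENPE lies at chr4:103198294-103198593, KIF14 at chr1:200620702-200621001, ASPM at chr1:197146620-197146919 and KIF18A at chr11:28108107-28108406. Capitals mark the cell cycle homology region (CHR; TTTGAA or TTCGAA, on either strand) and the CCAAT box (CCAAT, on either strand), motifs known from late cell cycle promoters.
CENPE: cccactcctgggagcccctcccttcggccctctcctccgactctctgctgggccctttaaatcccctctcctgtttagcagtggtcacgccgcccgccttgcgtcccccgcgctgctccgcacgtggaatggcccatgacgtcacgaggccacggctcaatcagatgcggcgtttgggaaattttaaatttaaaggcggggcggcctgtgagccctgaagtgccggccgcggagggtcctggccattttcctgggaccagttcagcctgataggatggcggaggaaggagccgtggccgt
KIF14: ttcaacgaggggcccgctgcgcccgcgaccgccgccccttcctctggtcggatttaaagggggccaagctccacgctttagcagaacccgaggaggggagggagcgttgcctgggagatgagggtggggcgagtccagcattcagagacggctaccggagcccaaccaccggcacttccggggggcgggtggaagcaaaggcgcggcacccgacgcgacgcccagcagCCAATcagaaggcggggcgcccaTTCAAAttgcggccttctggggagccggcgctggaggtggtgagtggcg
ASPM: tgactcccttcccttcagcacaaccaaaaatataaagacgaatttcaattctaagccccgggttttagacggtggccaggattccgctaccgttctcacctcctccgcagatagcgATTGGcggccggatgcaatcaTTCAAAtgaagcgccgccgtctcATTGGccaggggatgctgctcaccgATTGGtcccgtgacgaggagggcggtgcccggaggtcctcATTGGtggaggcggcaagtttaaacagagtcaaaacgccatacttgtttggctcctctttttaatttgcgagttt
KIF18A: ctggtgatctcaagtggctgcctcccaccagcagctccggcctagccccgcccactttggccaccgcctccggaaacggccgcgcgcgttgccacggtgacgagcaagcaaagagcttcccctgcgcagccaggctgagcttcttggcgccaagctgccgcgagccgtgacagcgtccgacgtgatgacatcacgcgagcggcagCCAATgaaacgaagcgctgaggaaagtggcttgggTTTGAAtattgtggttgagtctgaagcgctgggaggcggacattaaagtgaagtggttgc
KIF14, ASPM and KIF18A each held 1 CHR match, with 1, 4 and 1 CCAAT matches, and these letters were not in the CENPE window. Among the 39 members with a promoter entry, 30 (76.9%) held a CHR match and 31 (79.5%) a CCAAT match, and 26 (66.7%) held both. Among 13337 promoters of genes in the table the shares were 12.2%, 36.1% and 4.9%. Of the 15 members that fell with the length offset 14 had an entry, with a CHR match in 11 and a CCAAT match in 9, and of the other 29 members 25 had one, with 19 and 22. A match is a description of letters, and no entry was at hand for AURKA, TPX2, TTK, BIRC5 and UBE2C.

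In the account by role that follows, levels of 1 gene across libraries are in CPM, which are counts over the library total scaled by TMM. Log2 fold changes carry their SE. Roles differ in transcript length, so their counts are to be read beside the shares in SS against control by length class. Of short tested genes 34.6% rose and 2.77% fell, and of long ones 2.63% and 40.1%. With the length offset the shares were 2.29% and 2.97% of short genes, and 6.23% and 7.14% of long ones. MKI67, the gene of a chromosome surfactant used as a proliferation marker, was at 480 and 497 CPM in control, 262 and 290 in SS, and 441 and 360 in SS+NAC. Both SS libraries were below the other 4. Its log2 fold change in SS against control was -0.82 ± 0.10 (edgeR adjusted p 0.000319), and -0.25 ± 0.10 with the length offset (edgeR adjusted p 0.173). With the offset MKI67 passed the test without SS+NAC 1 (edgeR adjusted p 0.0221) and without SS+NAC 2 (0.026). TOP2A, the topoisomerase that untangles chromosomes, was at 311 and 297 CPM in control, 231 and 262 in SS, and 281 and 280 in SS+NAC. The SS libraries were lowest here too. TOP2A fell by 0.30 ± 0.08 on the log2 scale (edgeR adjusted p 0.0139), a call lost without control 1 (0.131), control 2 (0.0799) or SS 1 (0.11), and its value was 0.06 ± 0.08 with the length offset (edgeR adjusted p 0.718).

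Of the 7 genes of mitotic entry (CCNA2, CCNB1, CCNB2, CDK1, CDC25C, PLK1 and AURKA), all short, 1 rose and 0 fell in SS against control, and 0 passed with the length offset. CDK1, the kinase that drives entry into mitosis, was at 108 and 103 CPM in control, 97.7 and 105 in SS, and 96.7 and 108 in SS+NAC. The 3 groups overlapped, and the log2 fold change of CDK1 was -0.05 ± 0.08 (edgeR adjusted p 0.643), and -0.25 ± 0.08 with the length offset (edgeR adjusted p 0.072, and 0.0115 and 0.0106 without SS+NAC 1 and SS+NAC 2). With the length and GC offset CDK1 was at -0.0282 ± 0.06 (edgeR adjusted p 0.805). CCNB1, its main mitotic cyclin, was at 321 and 328 CPM in control, 356 and 415 in SS, and 294 and 259 in SS+NAC. The groups did not overlap, with SS highest and SS+NAC lowest. The log2 fold change of CCNB1 in SS against control was 0.25 ± 0.09 (edgeR adjusted p 0.0577, and 0.0274, 0.018 and 0.0197 without SS 1, SS+NAC 1 and SS+NAC 2), and 0.11 ± 0.08 with the length offset (edgeR adjusted p 0.468). CCNB1 was also called higher by DESeq2, with at least 10 counts in every library, with the compared groups only and with a replicate block that crosses the SS+NAC numbers, chosen after seeing the data. CCNB2, a second B-type cyclin, was at 122 and 125 CPM in control, 148 and 153 in SS, and 125 and 120 in SS+NAC. Both SS libraries were above the other 4. CCNB2 rose by 0.28 ± 0.07 (edgeR adjusted p 0.00978), a call lost without control 1 (0.114), control 2 (0.0513) or SS 2 (0.0741), and was at -0.01 ± 0.06 with the length offset (edgeR adjusted p 0.95). CCNA2, the cyclin of S phase and early mitosis, was at 147 and 144 CPM in control, 131 and 146 in SS, and 139 and 134 in SS+NAC. The SS and control libraries of CCNA2 overlapped, as did SS and SS+NAC, and its log2 fold change was -0.07 ± 0.08 (edgeR adjusted p 0.486).

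CDC20 and UBE2C, the activator and the ubiquitin-conjugating enzyme of the anaphase-promoting complex, both rose in SS against control, and 0 of these 2 passed with the length offset. UBE2C, the shortest member, was at 158 and 163 CPM in control, 226 and 248 in SS, and 155 and 148 in SS+NAC. SS libraries were highest, without overlap. UBE2C rose by 0.56 ± 0.08 (edgeR adjusted p 0.000481), and its value with the length offset was 0.09 ± 0.06 (edgeR adjusted p 0.429). CDC20 was at 369 and 389 CPM in control, 426 and 549 in SS, and 374 and 300 in SS+NAC. SS 2 stood well above SS 1. The log2 fold change of CDC20 was 0.36 ± 0.13 (edgeR adjusted p 0.0449), a call lost without control 1 (0.197), control 2 (0.0689) or SS 2 (0.386), and it was 0.10 ± 0.11 with the length offset (edgeR adjusted p 0.638). CDC20 was also not called with a replicate block, with only library totals as scaling, without the filter on low counts, or by DESeq2.

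Of the 6 genes of the spindle checkpoint and of cohesion protection, 0 rose and 4 fell (BUB1, BUB1B, TTK and SGO2), and SGO2 and TTK also fell with the length offset. SGO2, a shugoshin that shields centromeric cohesion, was at 51.0 and 40.5 CPM in control, 19.9 and 23.4 in SS, and 30.2 and 35.3 in SS+NAC. The SS libraries were lowest and the SS+NAC libraries lay between SS and control without overlap. SGO2 fell by 1.08 ± 0.13 (edgeR adjusted p 0.000274), and by 0.87 ± 0.13 with the length offset (edgeR adjusted p 0.00373). MAD2L1, the checkpoint protein that sequesters CDC20, was at 64.6 and 66.7 CPM in control, 73.4 and 71.1 in SS, and 51.5 and 59.3 in SS+NAC. SS was highest and SS+NAC lowest. The log2 fold change of MAD2L1 in SS against control was 0.14 ± 0.08 (edgeR adjusted p 0.212), and -0.18 ± 0.09 with the length offset (edgeR adjusted p 0.237). For TTK, the checkpoint kinase named here by its call, the offset value was -0.66 ± 0.10 (edgeR adjusted p 0.00486), lost without control 1 (0.0549) or SS 1 (0.0532). BUB1 and BUB1B lost their calls without control 1 (edgeR adjusted p 0.145 and 0.157), control 2 (0.11 and 0.315) or SS 1 (0.171 and 0.199), and BUB1B also without SS 2 (0.0862).

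Of the 6 centromere and kinetochore genes 1 rose and 2 fell, and with the length offset 0 rose and 4 fell (CENPE, CENPF, NDC80 and NUF2). CENPE, a kinesin that carries chromosomes to the spindle equator, was at 56.4 and 47.5 CPM in control, 13.6 and 16.4 in SS, and 36.2 and 40.3 in SS+NAC. Neither group overlapped another, and SS was 3.46-fold lower than control. CENPE fell by 1.79 ± 0.12 on the log2 scale (edgeR adjusted p 1.8e-05), and by 1.30 ± 0.12 with the length offset (edgeR adjusted p 0.000605). CENPF, a large kinetochore and nuclear matrix protein, was at 201 and 181 CPM in control, 94.0 and 109.9 in SS, and 163 and 160.3 in SS+NAC. SS was lowest. CENPF fell by 0.91 ± 0.09 (edgeR adjusted p 0.000143), and by 0.36 ± 0.10 with the length offset (edgeR adjusted p 0.0441), the latter call lost without control 1 (0.296), control 2 (0.0964) or SS 1 (0.268). CENPA, the histone variant that marks centromeres, was at 33.1 and 35.6 CPM in control, 39.9 and 48.7 in SS, and 35.3 and 35.1 in SS+NAC. SS was highest, and CENPA rose by 0.36 ± 0.10 (edgeR adjusted p 0.0146), a call lost without control 1 (0.113) or SS 2 (0.156), with 0.04 ± 0.09 under the length offset (edgeR adjusted p 0.818). SPC25, a subunit that anchors the microtubule-binding complex, was at 46.0 and 42.8 CPM in control, 45.3 and 56.6 in SS, and 42.9 and 42.6 in SS+NAC. SS 1 lay within the control range and SS 2 above it, and the log2 fold change of SPC25 was 0.20 ± 0.10 (edgeR adjusted p 0.152, and 0.023 without SS 1) and -0.15 ± 0.09 with the length offset (edgeR adjusted p 0.32). NDC80 and NUF2 had offset values of -0.37 ± 0.09 and -0.38 ± 0.08, and each of these calls was lost on leaving out either control library (edgeR adjusted p 0.231 and 0.0909 for NDC80, 0.146 and 0.13 for NUF2) or either SS library (0.204 and 0.0508 for NDC80, 0.136 and 0.115 for NUF2).

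Of the 4 genes of the chromosomal passenger complex, which corrects faulty attachments, 1 rose (AURKB) and 1 fell (INCENP), and 0 passed with the length offset. AURKB, its kinase, was at 95.7 and 101 CPM in control, 119 and 136 in SS, and 109 and 91.2 in SS+NAC. Both SS libraries were highest. AURKB rose by 0.37 ± 0.10 (edgeR adjusted p 0.0123), a call lost without control 1 (0.0986) or SS 2 (0.12), and was at 0.00 ± 0.08 with the length offset (edgeR adjusted p 0.995). INCENP, its scaffold, was at 139.6 and 150.5 CPM in control, 101 and 122 in SS, and 131 and 106 in SS+NAC. Both SS libraries were below both controls, and the SS and SS+NAC groups overlapped. INCENP fell by 0.38 ± 0.11 (edgeR adjusted p 0.022), a call lost without control 1 (0.0509), control 2 (0.141) or SS 1 (0.165), and was at -0.09 ± 0.12 with the length offset (edgeR adjusted p 0.687).

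The 8 mitotic kinesins are motors that move along microtubules or take their ends apart, and all but KIF2C are long. In SS against control 0 of them rose and 5 fell, and with the length offset KIF14, KIF18A and KIF20B fell. KIF14, which acts in cytokinesis, was at 59.4 and 52.4 CPM in control, 21.0 and 22.4 in SS, and 45.3 and 47.9 in SS+NAC. SS was lowest, without overlap. KIF14 fell by 1.36 ± 0.09 (edgeR adjusted p 1.8e-05), and by 0.93 ± 0.09 with the length offset (edgeR adjusted p 0.000605). KIF2C, a depolymerase at centromeres, was at 123 and 135 CPM in control, 129.7 and 146 in SS, and 126 and 112 in SS+NAC. Its SS and control values overlapped, with a log2 fold change of 0.09 ± 0.09 (edgeR adjusted p 0.445) that was -0.00 with only library totals as scaling. KIF18A and KIF20A were set side by side after their values were seen, because their effective lengths were 3238 and 3256 bases. KIF18A, which dampens chromosome movement at the spindle equator, was at 42.6 and 36.1 CPM in control and 18.6 and 21.9 in SS, and fell by 0.96 ± 0.11 (edgeR adjusted p 0.000226). KIF20A, a kinesin of cytokinesis, was at 176 and 192 CPM in control and 171 and 196 in SS, with a log2 fold change of -0.01 ± 0.10 (edgeR adjusted p 0.965). Whether these 2 genes differ from each other was not tested. The GC content of their transcripts was 37.0% for KIF18A and 48.4% for KIF20A. Besides KIF11, KIF14, KIF18A and KIF20B the called kinesins include KIF23, whose call was lost without any of control 1 (edgeR adjusted p 0.125), control 2 (0.24), SS 1 (0.158) or SS 2 (0.058).

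Of the 7 genes of spindle assembly and microtubule bundling, 0 rose and 4 fell with and without the length offset, namely ASPM, DLGAP5, HMMR and CKAP2. ASPM, a spindle pole protein, was at 115 and 107 CPM in control, 35.2 and 41.2 in SS, and 81.5 and 90.9 in SS+NAC. SS was lowest and 2.90-fold lower than control. ASPM fell by 1.54 ± 0.10 (edgeR adjusted p 1.6e-05), and by 0.97 ± 0.10 with the length offset (edgeR adjusted p 0.000693). NUSAP1, a microtubule-bundling protein, was at 174 and 170.4 CPM in control, 159.8 and 194 in SS, and 166 and 163 in SS+NAC. The SS libraries lay on both sides of the controls, with a log2 fold change of 0.04 ± 0.09 (edgeR adjusted p 0.776) that was -0.06 with only library totals as scaling and -0.11 without SS 2. The offset calls of DLGAP5, HMMR and CKAP2 were lost without control 1 (edgeR adjusted p 0.172, 0.0643 and 0.0942) and without SS 1 (0.138, 0.0532 and 0.0805).

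The cytokinesis genes ANLN and ECT2 fell both with and without the length offset. ANLN, a scaffold of the contractile ring, was at 252 and 238 CPM in control, 153 and 166 in SS, and 198 and 193 in SS+NAC. ECT2, the exchange factor that activates RhoA at the cleavage site, was at 94.5 and 88.5 CPM in control, 56.5 and 58.4 in SS, and 67.7 and 72.2 in SS+NAC. For both genes control was highest, SS lowest and SS+NAC between, without overlap. ANLN fell by 0.62 ± 0.08 (edgeR adjusted p 0.000302) and ECT2 by 0.67 ± 0.08 (edgeR adjusted p 0.000225). With the length offset ANLN fell by 0.35 ± 0.07 (edgeR adjusted p 0.0177), a call lost without control 1 (0.183), control 2 (0.089) or SS 1 (0.16), and ECT2 fell by 0.46 ± 0.07 (edgeR adjusted p 0.00443), a call lost without control 1 (0.0715) or SS 1 (0.0538).

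**Figure D2:**
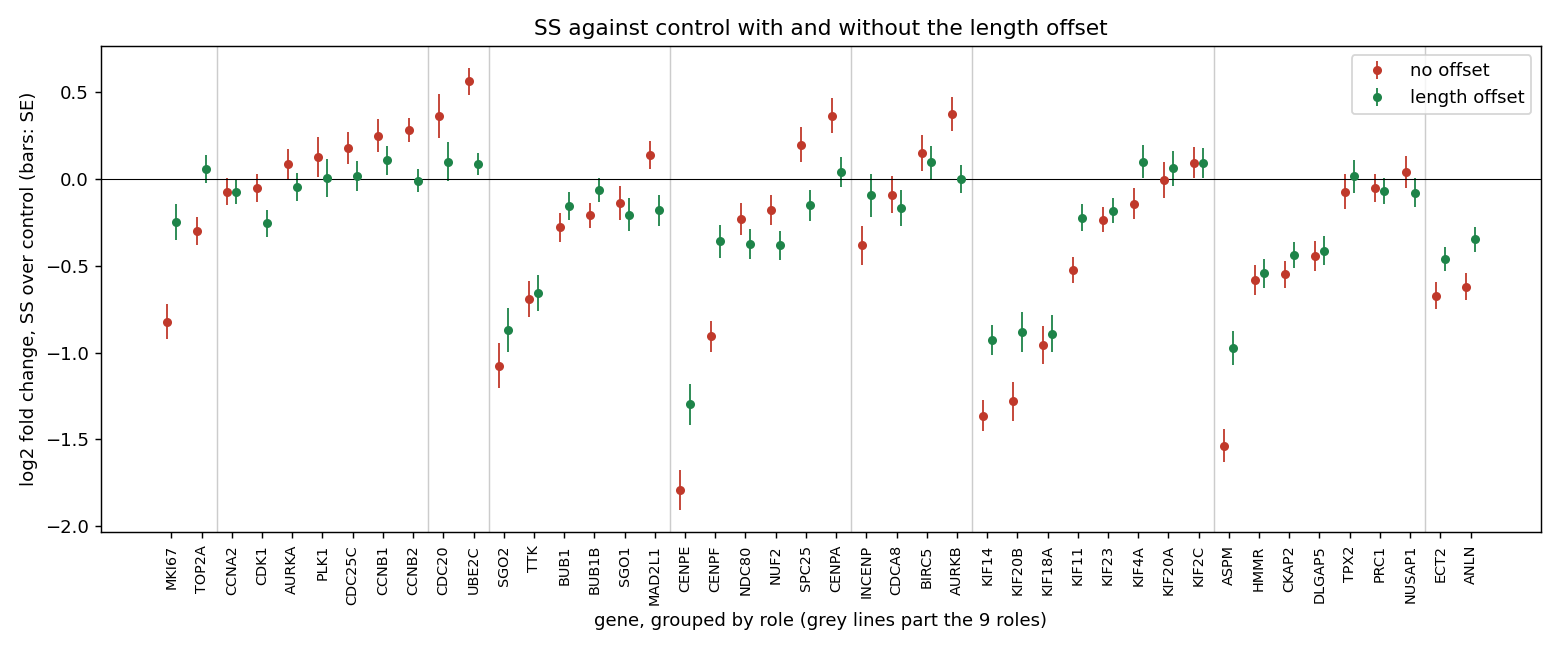
Log2 fold change of SS over control with its SE (vertical axis) for the 44 members grouped by the 9 roles (horizontal axis), without the length offset in red and with it in green. CENPE is lowest in both fits (-1.79 and -1.30), and UBE2C moves from 0.56 to 0.09.

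**Figure D3:**
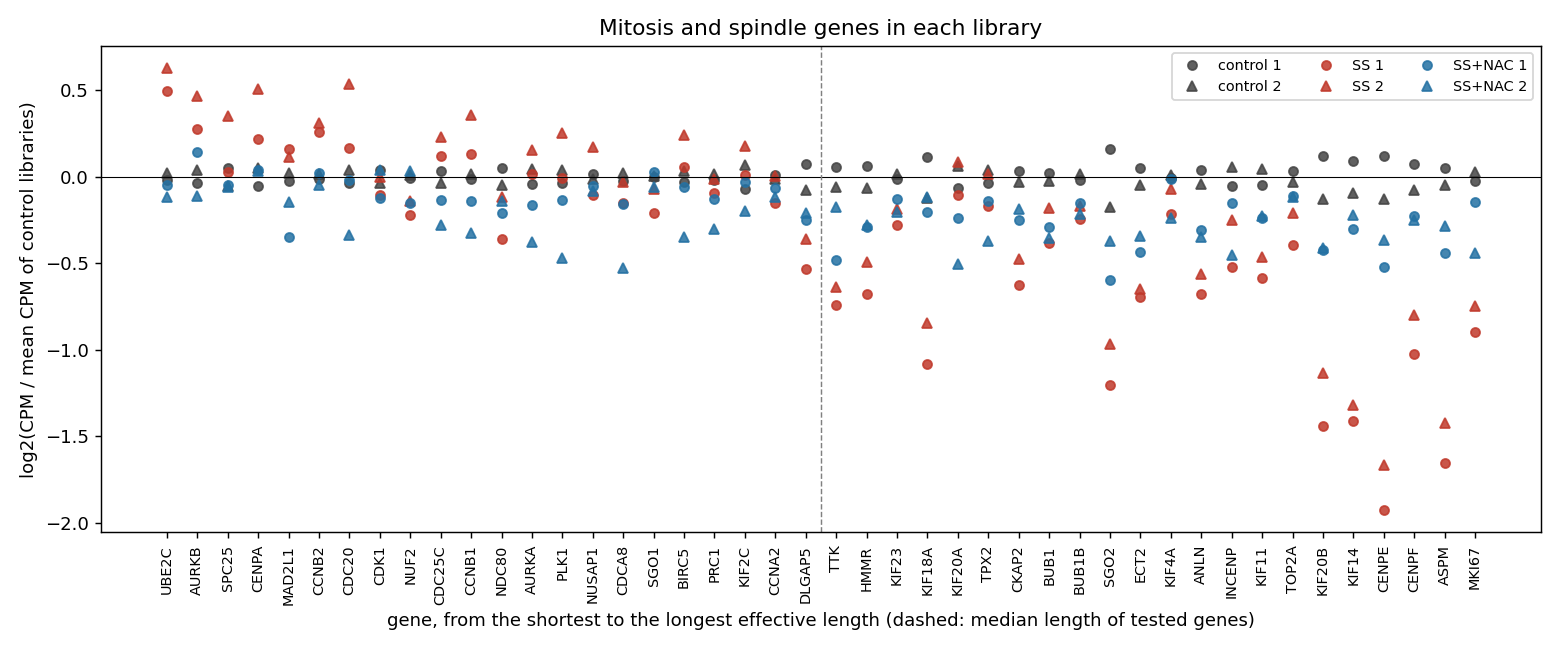
Log2 of each library's CPM over the mean of the control libraries (vertical axis) for the 44 members ordered by effective length (horizontal axis), with control in grey, SS in red and SS+NAC in blue, circles for replicate 1 and triangles for replicate 2. Across the 22 long members the medians were -0.68 and -0.53 in SS, with -0.25 and -0.28 in SS+NAC, and across the 22 short members they were 0.01 and 0.17 in SS and -0.09 and -0.14 in SS+NAC.

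Base composition also varied with the members' fold changes. The 15 members that fell in SS against control with the length offset had a median transcript GC content of 37.1% (34.2% to 40.8%), a median effective length of 4256 bases and a median control level of 37.1 TPM. The other 29 members had medians of 46.4% (35.6% to 59.6%), 2537 bases and 99.4 TPM. Over the 44 members Spearman's rho between GC content and the length-offset log2 fold change was 0.81, and over 13677 tested genes it was 0.29. With the length and GC offset the values were 0.63 and 0.02. These correlations across genes are descriptions, and the part of GC content or level in the members' fold changes was not tested.

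**Figure D4:**
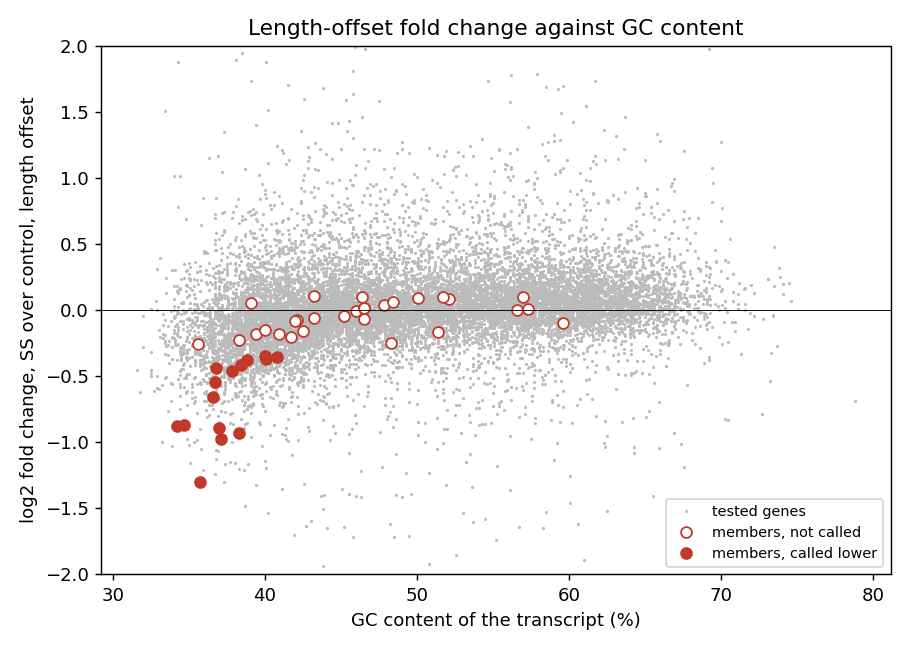
Log2 fold change of SS over control with the length offset (vertical axis) against transcript GC content in percent (horizontal axis), with tested genes in grey, called members as filled and other members as open red circles. The 15 called members lie between 34.2% and 40.8% GC; 44 tested genes lie beyond the vertical axis.

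In SS against SS+NAC, which shares the SS libraries with the comparison above, 12 members rose and 14 fell, beside 19.6% and 23.1% of tested genes. Medians were -0.02 over the members and -0.03 over all tested genes. Of the short members 11 of 22 rose and 0 fell, and of the long members 1 of 22 rose (KIF20A) and 14 fell, beside 36.2% and 5.06% of short genes and 3.03% and 41.2% of long genes. With only library totals as scaling the all-gene median was -0.17, 6 members rose and 17 fell, and 26.6% of calls over all tested genes were rises, against 45.9% with TMM. Leaving out SS 2 gave 16 called members, of which 3 rose, and leaving out SS 1 gave 21, of which 8 fell. Over all tested genes 22.7% were called without SS 2, with 9.32% that rose, and 35% without SS 1, with 18.2% that fell, against 42.7% called with all libraries.

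With the length offset, 2 members rose in SS against SS+NAC (CCNB1 and KIF20A) and 6 fell (ASPM, CENPE, KIF14, KIF18A, KIF20B and NUF2), beside 7.05% and 7.33% of tested genes, with a member median of 0.01. Leaving out SS 2 gave 5 called members and leaving out SS+NAC 1 gave 23, while the share of all tested genes called went from 14.4% to 2.42% and 26.8%. With the length and GC offset 5 rose and 4 fell, beside 9.97% and 9.57% of tested genes, with a member median of 0.08. CENPE fell by 1.35 ± 0.12 without an offset (edgeR adjusted p 0.000108) and by 0.88 ± 0.12 with the length offset (edgeR adjusted p 0.002). CCNB1 rose by 0.48 ± 0.09 (edgeR adjusted p 0.00265) and by 0.36 ± 0.08 with the length offset (edgeR adjusted p 0.0203), the latter call lost without SS 2 (0.195). KIF20A, at 156 and 129.6 CPM in SS+NAC, rose by 0.36 ± 0.10 (edgeR adjusted p 0.0174), a call lost without SS 2 (0.156) or SS+NAC 2 (0.0816), and by 0.43 ± 0.10 with the length offset (edgeR adjusted p 0.021), a call lost without SS 2 (0.193). The offset call of KIF20B was lost without SS 1 (edgeR adjusted p 0.145), and that of NUF2 without control 1 (0.0752), control 2 (0.0775), SS 1 (0.155), SS 2 (0.18) or SS+NAC 2 (0.173). MKI67 fell by 0.54 ± 0.10 (edgeR adjusted p 0.00217) and was at 0.01 ± 0.10 with the length offset (edgeR adjusted p 0.947).

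In SS+NAC against control, which shares libraries with both comparisons above, 0 members rose and 1 fell (ECT2), beside 1.36% of tested genes that rose and 0.657% that fell. At an unadjusted edgeR p under 0.05 the numbers were 0 higher and 26 lower, beside 9.11% and 7% of tested genes. DESeq2 called 0 higher and 8 lower, beside 0.998% and 0.765% of the genes it tested. The median was -0.22 over the members against 0.00 over all tested genes, and 42 of 44 members lay below 0, against 50.6% of tested genes. In 34 of the 44 members both SS+NAC libraries were below both controls in CPM, against 23.6% of tested genes. ECT2 fell by 0.39 ± 0.07 (edgeR adjusted p 0.0277), a call lost without control 1 (0.277), control 2 (0.136), SS 1 (0.0517) or SS 2 (0.0532). Leaving out SS+NAC 1 gave 13 called members and leaving out SS+NAC 2 gave 6, while leaving out control 1, SS 1 or SS 2 gave 0. The share of all tested genes called went from 2.01% to 7.61% without SS+NAC 1 and 1.95% without SS+NAC 2, and to 0.684%, 1.52% and 1.51% without control 1, SS 1 and SS 2. Without any scaling beyond library totals 0 members were called, beside 1.51% of all tested genes. A replicate block gave 0 called members and 211 genes, and a block with the SS+NAC numbers crossed, chosen after seeing the data, gave 24 members and 1475 genes, against 1 and 282 without a block.

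The length offset changed this comparison little, with 0 members higher and 1 lower (ECT2) beside 1.35% of tested genes that rose and 0.664% that fell. At an unadjusted edgeR p under 0.05 it gave 0 higher and 28 lower, beside 9.31% and 8.13% of tested genes. With it 15 members were called without SS+NAC 1, 6 without SS+NAC 2 and 0 without control 1 or control 2, with 10.2%, 2.08%, 0.537% and 0.425% of all tested genes called in these fits. With the length and GC offset 9 fell, beside 2.17% of tested genes, namely ANLN, ASPM, BUB1, CENPE, ECT2, KIF20A, MAD2L1, SGO2 and TTK. Among the short members the median of SS+NAC over the control mean was -0.09 and -0.14 in the 2 libraries, and among the long members -0.25 and -0.28. CENPE had a log2 fold change of -0.44 ± 0.11 (edgeR adjusted p 0.0732, and 0.0203 without SS+NAC 2) in SS+NAC against control, and SGO2 had -0.48 ± 0.12 (edgeR adjusted p 0.0921, 0.0489 without control 2 and 0.0152 without SS+NAC 2). Whether any member's change in SS differed between the presence and the absence of N-acetylcysteine beyond the SS against SS+NAC test was not tested. Without a group given N-acetylcysteine alone, the design cannot test it.

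Other genes of mitosis were taken from 6 lists of 134 genes, none of them a member. In SS against control, 23 (17.2%) rose and 45 (33.6%) fell, against 18.6% and 21.4% of all tested genes. With the length offset 5 (3.73%) rose and 24 (17.9%) fell, against 4.26% and 5.06%. A gene named from a list is the called one with the smallest p there under the length offset, and not every list has a gene named. The lists of the anaphase-promoting complex (17 genes), the centromere, kinetochore and checkpoint (33) and the mitotic entry genes (13) had 1 and 2, 0 and 5, and 0 and 0 rises and falls with the offset. Condensin, cohesin and separase (19) had 0 and 6, the spindle and cytokinesis list (31) had 1 and 10, and the transcriptional regulators (21) had 3 and 1. SMC3, a cohesin subunit, was at 114 and 99.0 CPM in control, 56.1 and 62.7 in SS, and 96.9 and 109.96 in SS+NAC. SS was lowest and the other groups overlapped, and SMC3 fell by 0.65 ± 0.10 with the offset (edgeR adjusted p 0.00373). KIF2A, a microtubule depolymerase, was at 86.7 and 82.7 CPM in control, 50.6 and 47.8 in SS, and 71.4 and 78.2 in SS+NAC, and fell by 0.60 ± 0.07 with the offset (edgeR adjusted p 0.0016). ANAPC16, a subunit of the anaphase-promoting complex, rose by 0.44 ± 0.08 without the offset (edgeR adjusted p 0.00192) and by 0.54 ± 0.08 with it (edgeR adjusted p 0.00316). RBBP4, a histone-binding protein of several chromatin complexes with an effective length of 8057 bases, was at 0.10 ± 0.07 without the offset (edgeR adjusted p 0.291) and passed the test with the offset only, at 0.58 ± 0.06 (edgeR adjusted p 0.00116).

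FOXM1, MYBL2 and CDKN1A, regulators of the cell cycle, were chosen after their values were seen. CDKN1A, an inhibitor of cyclin-dependent kinases, was at 14.2 and 14.5 CPM in control, 31.7 and 24.8 in SS, and 17.2 and 18.0 in SS+NAC. Both SS libraries were highest, and CDKN1A rose by 0.98 ± 0.12 (edgeR adjusted p 0.000312), and by 0.83 ± 0.13 with the length offset (edgeR adjusted p 0.0043). FOXM1, the transcription factor of late cell cycle genes, was at 363 and 369 CPM in control, 281 and 308 in SS, and 325 and 274 in SS+NAC. FOXM1 fell by 0.31 ± 0.09 (edgeR adjusted p 0.0218), and its value with the length offset was -0.20 ± 0.09 (edgeR adjusted p 0.2). MYBL2, a partner in the same promoter complex, had a log2 fold change of -0.09 ± 0.11 (edgeR adjusted p 0.551). Of 21 DNA replication genes, 5 rose and 1 fell in SS against control, against 18.6% and 21.4% of all tested genes. With the length offset 0 rose and 1 (4.76%) fell, against 4.26% and 5.06%, namely CCNE2, a cyclin of S phase entry, at -0.28 ± 0.08 (edgeR adjusted p 0.0493). The list median with the length offset was 0.12, with 5 of 21 genes below 0, and in SS against SS+NAC 6 of 21 (28.6%) rose and 0 fell with that offset, against 7.05% and 7.33% of all tested genes. With the length and GC offset 2 rose and 0 fell in SS against control, and CCNE2 was at -0.06 ± 0.07 (edgeR adjusted p 0.639).

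Some members share exonic sequence with another gene, and the counting is not stated to use strand, so their values are uncertain. NUSAP1 shares 62.2% of its exonic bases with another protein-coding gene on its strand, and PRC1 shares 57.6% likewise. SGO1 shares 17.7% and PLK1 11.6% with a transcript on the opposite strand. BUB1B, CCNA2, CDC25C and CENPA share between 7.0% and 10.2% with a neighbour. The expected counts were not whole numbers in at least 1 library for 18 of the 44 members, ECT2 and KIF14 among them. Of the members named here for an overlap, PRC1 and CENPA had whole counts in every library and the others did not.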

How the data were processed

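RNA-seq of 6 KHM-5M libraries was analysed from a gene table deposited by the authors, who mapped reads with HISAT2 2.0.4 (Bowtie2 2.2.5 is also named) and estimated expected counts, FPKM and TPM per gene with RSEM 1.2.12. Of the deposited expected counts 44.8% are not whole numbers, and all were rounded here before testing. The deposited FPKM served only to compute effective lengths, as the median over libraries with FPKM of at least 0.5, and the deposited TPM served to compare levels between genes. The 9 group means and 9 author comparison columns (fold change, p and q, from DESeq2 by their names) were not used. The other lists, like the members, were chosen with earlier results of these data known.

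Genes passing filterByExpr were tested across all 6 libraries in edgeR 4.0.16 (R 4.3.3) with TMM scaling, the quasi-likelihood test and Benjamini-Hochberg adjustment over 14005 genes, at 0.05. The length offset was a lowess curve (span 0.3) of each library's deviation on log effective length. An offset on length and GC content (GENCODE 29 transcripts, 13677 tested genes and all 44 members), fitted in 5 rounds, was added after seeing the data. Tables and plots used Python 3.11.15, pandas 2.3.3, numpy 2.4.6 and matplotlib 3.10.9. Code was tested on simulated data.

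Values in every library are given for MKI67, TOP2A, CDK1 and CCNB1, for the highest and lowest fold change of SS over control in each role, and for the 3 shortest and 3 longest members. Other members are named from counts or calls, after their values were seen. A gene named from the other lists is the called one with the smallest p there under the length offset, and not every list has a gene named. Replicates were checked for duplication: the chi-square per degree of freedom between replicates was 3.16 in control, 7.46 in SS and 12.4 in SS+NAC, and the biological coefficient of variation was 6.74%. Alternatives were DESeq2 1.42.0 and its size factors, library totals only, no filter, at least 10 counts in every library, compared groups only, Bonferroni adjustment, a replicate block and leaving out each library.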

Additional observations from a re-analysis of the deposited data

How the results depend on the processing

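In SS against control 25 members and 5609 tested genes were called. The length offset gave 15 and 1304, Bonferroni adjustment 6 and 220, and the length and GC offset, chosen after seeing the data, 13 and 1841. Leaving out 1 library gave from 16 (control 1) to 27 members and from 3118 (control 1) to 6579 genes. With the length offset, leaving out 1 library gave from 6 (control 1 and SS 1) to 18 members. The member median of -0.16 was -0.26 with library totals only. Relative to the median of its length eighth, the member median on leaving out 1 library ranged from -0.23 without SS 2 to -0.10 without SS 1, and it was -0.08 with the length and GC offset.

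In SS against SS+NAC 26 members and 5985 genes were called. The length offset gave 8 and 2014, Bonferroni adjustment 3 and 191, and the length and GC offset 9 and 2736. Leaving out 1 library gave from 16 (SS 2) to 30 members and from 3250 (SS 2) to 6339 genes, and with the length offset from 5 (SS 2) to 23 members (SS+NAC 1). The member median of -0.02 was -0.16 with library totals only and 0.0761 with the length and GC offset. On leaving out 1 library it ranged from -0.0804 without SS 2 to 0.0479 without SS 1, so its sign was not stable. With the length offset that range was from -0.0712 without SS 2 to 0.0616 without SS 1.

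In SS+NAC against control 1 member and 282 genes were called. The number of members was 0 with library totals only (212 genes), with the compared groups only (206 genes) and with Bonferroni adjustment (40 genes). It was 8 by DESeq2 (311 genes) and 2 with at least 10 counts in every library (310 genes). With the length and GC offset it was 9 (665 genes). Leaving out 1 library gave from 0 to 13 members (SS+NAC 1) and from 98 (control 1) to 1086 genes (SS+NAC 1). With the length offset it gave from 0 to 15 (SS+NAC 1), and with the GC offset as well 9 members were called. The member median of -0.22 was -0.18 with library totals only and, on leaving out 1 library, ranged from -0.23 to -0.15 (without SS+NAC 2), and relative to the length eighth from -0.24 to -0.16 (without SS+NAC 2).

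With the replicate number as a replicate block, 22, 26 and 0 members and 4857, 5136 and 211 genes were called in the 3 comparisons, in the order above. With the replicate block the length offset gave 14, 7 and 0 members and 844, 1347 and 202 genes. With the replicate block the length and GC offset gave 9, 6 and 4 members and 1291, 1979 and 386 genes. The member median in SS against SS+NAC was 0.0745 in that fit. Replicate differences correlated between groups at 0.11, -0.11 and -0.17, so the numbers do not pair the libraries. A replicate block with the SS+NAC numbers crossed, chosen after seeing the data, called 27, 33 and 24 members and 7151, 7286 and 1475 genes, and the cause was not tested.

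Of 722 alternatives for 38 single-gene results, 558 gave the same result, 124 a weaker one, 8 a stronger one and 32 a reversed sign. In SS against control TOP2A was at 0.0571 with the length offset and 0.055 with the replicate block added, and at 0.16 and 0.16 with the length and GC offset. CCNB2 was at -0.0087 and -0.0088 with the length offset without and with the replicate block. MAD2L1 was at -0.18 and -0.18 with the length offset, and at -0.0358 and -0.0346 with the length and GC offset. SPC25 was at -0.15 and -0.15 with the length offset, and at -0.0168 and -0.0177 with the length and GC offset. AURKB was at -0.0379 and -0.0378 with the length and GC offset. NUSAP1 was at -0.0799 and -0.0829 with the length offset, -0.0601 with library totals only, and between -0.11 without SS 2 and 0.17 without SS 1. KIF2C was at -0.002 with library totals only, and CCNA2 at 0.0025 without SS 1. In SS against SS+NAC, MKI67 was at 0.0132 and 0.0145 with the length offset. AURKB was at -0.011 and -0.01 with the length offset, and at -0.0487 and -0.0482 with the length and GC offset. With the length and GC offset ANLN was at 0.0582 and 0.0583, and ECT2 at 0.0677 and 0.0676.

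Each group had 2 libraries, and leaving out 1 assumes that the remaining library varies as the other groups do. The length offset takes away any true change that follows transcript length, and the same holds for GC content. The gene table holds no value for RNA quality, cell number or the share of cells in each phase. Gene levels pool all transcripts of a gene, and effective length is an average over them.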
